A study of Arabidopsis thaliana with 163 samples.

Results

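The regions described here are the stretches of the Arabidopsis thaliana genome that were called higher in histone H3 lysine 9 acetylation (H3K9ac) after 2 h of jasmonate in wild-type seedlings of the large-scale experiment. They are all 2144 rows on the 5 nuclear chromosomes of that comparison, of 2154 rows in its list, and the 10 others lie on the mitochondrial or plastid genome. They are called gains below. In the large-scale experiment PHILO ChIP-seq, a plate-based chromatin immunoprecipitation for many small samples, was run on 9 genotypes at 4 time points with 3 replicates, and the gains come from its wild-type arm. Both groups were whole 10-day-old seedlings of the accession Col-0 without a transgene, grown on agar plates with Linsmaier and Skoog medium and sucrose. One group was exposed to gaseous methyl jasmonate for 2 h (2hJA, 3 libraries) and the other was untreated (ctrl, 3 libraries). Chromatin of both was precipitated with an anti-H3K9ac antibody.

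Jasmonates are lipid-derived hormones made after wounding and insect feeding. In resting cells JAZ repressors hold the MYC2 family of transcription factors in check together with corepressors that bring in histone deacetylases. Jasmonoyl-isoleucine, the active hormone, joins JAZ proteins to the receptor COI1, the repressors are degraded, and the freed MYC factors work with the Mediator complex and histone acetyltransferases. H3K9ac marks the 5′ part of active genes, whereas H3K27me3 is the mark of Polycomb silencing. The comparison asks where in the genome this switch is visible as acetylation.

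The authors merged the 3 libraries of each group before the domains were called, so each gain has 1 count for 2hJA and 1 for ctrl, and the spread between replicates cannot be seen. The gains were therefore described and not tested again. Ratios are 2hJA counts over ctrl counts divided by the ratio of the library totals (0.948, 2hJA over ctrl), and the 95% intervals beside them are exact binomial intervals that cover counting error only. In a whole seedling, acetylation in more cells and more acetylation per cell cannot be told apart. The labelled tissue was checked against marker genes in untreated seedlings. All 4 shoot markers, among them the Rubisco gene RBCS1A, had H3K9ac at the 5′ end in all 3 untreated libraries. None of the 5 root markers and none of the 6 seed and flower markers did, and all 11 of these had H3K27me3. Of these marker genes 1 had a gain, the root gene PYK10, which also belongs to the ER body genes described further on.

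Before the values, sequences at MYC2 binding sites inside 8 of the gains are printed, to show what the gained chromatin looks like where the factor binds. The sites are summits of MYC2 peaks from seedlings of a myc2 line rescued with MYC2:MYC2-FLAG, 2 h JA against untreated. Each gain below was among the 15 with the highest lower bound of the ratio or the 10 with the largest increase in counts. The stretches are plus-strand reference sequence (RefSeq copy of TAIR10), 5′ to 3′, with the G-box, CACGTG, or its variant in capitals. The variant reads CACGTT, and where it lies on the other strand its capitals begin with AA. They hold 61 bases around the summit where these lay outside untranslated regions, and 30 bases around the motif otherwise.
MBP2, upstream of the start, chr1:19349110-19349139: cattcctttttaAACGTGagagaaatgctt
CSLA10, coding exon, chr1:8517509-8517569: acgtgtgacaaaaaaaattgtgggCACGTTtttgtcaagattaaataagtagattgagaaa
IGMT5, upstream of the start, chr1:28824592-28824652: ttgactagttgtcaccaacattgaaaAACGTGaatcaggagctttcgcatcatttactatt
JRG21, untranslated exon, chr3:20767511-20767540: tagCACGTTcgaaacatgttaatagttgtg
VSP2, untranslated exon, chr5:8502055-8502084: tcgtttttagtgCACGTTgagattgtgtgc
TSA1, untranslated exon, chr1:19520651-19520680: aagaatgaaatcCACGTTtaagttagttac
MYC2, upstream of the start, chr1:11804316-11804376: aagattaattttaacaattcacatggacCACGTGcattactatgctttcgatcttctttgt
FUT3, next to MYB95, upstream of the start, chr1:27971332-27971392: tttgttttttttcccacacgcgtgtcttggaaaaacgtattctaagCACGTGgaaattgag

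A site was printed only where CACGTG or CACGTT lay within 30 bp of the summit, so every printed site carries a motif by this choice. Of the printed sites 6 carry the variant and 2, at MYC2 and at FUT3, the G-box itself. The gains at IGMT5, FUT3 and MYC2 each held a more enriched summit (4.16, 4.57 and 3.74-fold) than the printed site (3.74, 2.92 and 3.25-fold). The MYC2 site lies 2939 bp upstream of the start of MYC2 itself. The highest MYC2 enrichment of the 8 sites was 7.87-fold, at TSA1. In all, 27 of the 51 gains searched for a sequence had either form at a summit.

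The gains were many and mostly shallow. Together they covered 4.01 Mb, or 3.37% of the nuclear genome, and held 1252171 counts in 2hJA and 1067584 in ctrl. Taken separately over the gains, the medians were 431 counts in 2hJA, 362 counts in ctrl and a scaled ratio of 1.22 (log2 ratio 0.29). The log2 ratio ran from 0.05 to 2.50, and 396 gains (18.5%) reached 0.5. The ratio was 2-fold or more in 83 gains (3.87%). The counting interval reached a ratio of 1 in 425 gains (19.8%), none of them among the 83. The median interval extended 0.21 to each side on the log2 scale, so that many gains cannot be ranked against their neighbours. Gains were 200 to 14000 bp wide, with a median of 1400 bp, and were spread over the 5 chromosomes at 16.0 to 19.2 per Mb.

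**Figure D1:**
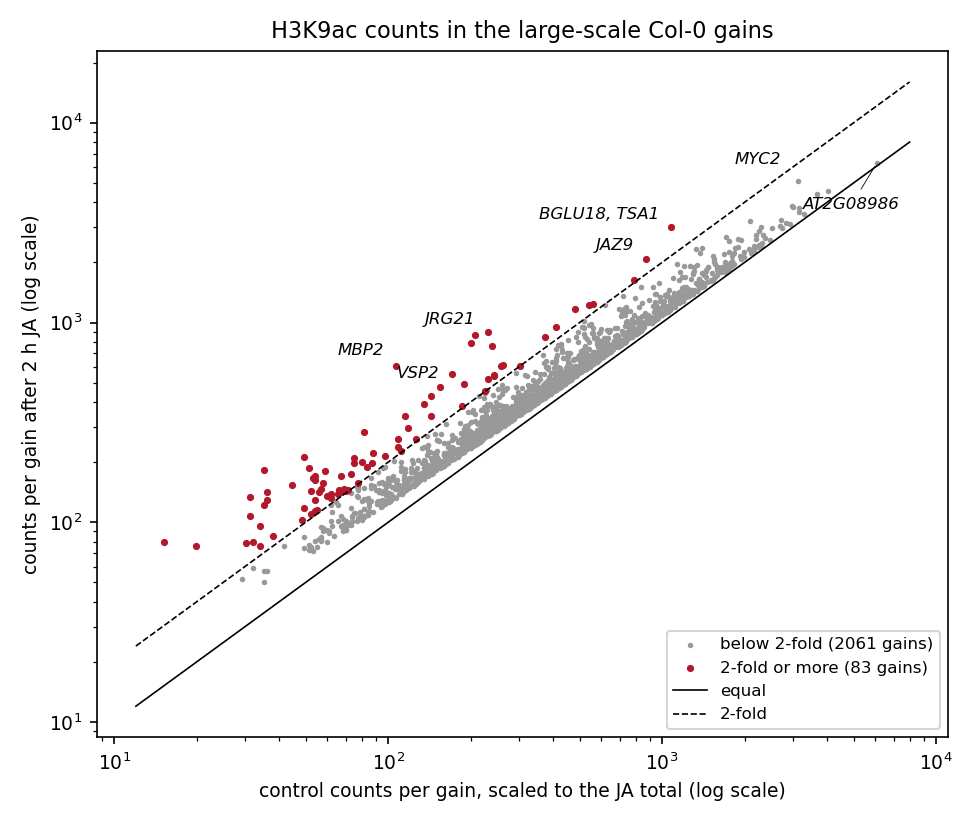
Counts of each of the 2144 gains in ctrl, scaled to the 2hJA library total (x axis), and in 2hJA (y axis), both on log scales, with lines at equal scaled counts and at 2-fold. Most points lie close above the line of equal counts, and the gains at MBP2 (107 scaled ctrl counts and 608) and MYC2 (3135 and 5134) show the highest ratio and the largest increase.

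Genes at the gains were found by whether a gain touched the first 500 bp of the gene. By this rule 2572 of 27444 protein-coding genes (9.37%) had a gain at the 5′ end, 387 (1.41%) a gain with a log2 ratio of at least 0.5 and 66 (0.24%) a 2-fold gain. The median log2 ratio of the genes with a gain was 0.26. These are the shares against which the gene lists below are to be read. A single gain could touch several genes, at most 7 5′ ends, and the counts cannot then be divided between them.

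The highest ratio belonged to MBP2, which codes for a myrosinase-binding protein. Myrosinases are the enzymes that break down glucosinolates, the sulfur-containing defence compounds of the cabbage family. MBP2 (chr1:19346001-19349800) had 113 counts in ctrl and 608 in 2hJA, a ratio of 5.68 (4.64 to 7.0). Its neighbour MBP1 had 57 and 171 counts and a ratio of 3.16 (2.33 to 4.35). Before treatment both genes were without an H3K9ac domain in any of the 3 untreated libraries.

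The second gain by the lower bound of its ratio touched no protein-coding gene (chr5:16136601-16137800). It had 37 and 183 counts and a ratio of 5.22 (3.65 to 7.64), and overlapped the non-coding RNA AT5G40348. The nearest protein-coding gene was MYB24, 744 bp away, a MYB factor known for its role in jasmonate-dependent stamen development. CSLA10, a cellulose synthase-like gene, shared a gain with the RNase H family gene AT1G24090, with 218 and 866 counts and a ratio of 4.19 (3.61 to 4.88). Of its length 2.2% matches a second nuclear site.

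IGMT5 codes for a methyltransferase of indole glucosinolates. Its gain (chr1:28821801-28825200) had 212 and 791 counts and a ratio of 3.94 (3.38 to 4.60). Unlike MBP2, it lay on chromatin with H3K9ac in all 3 untreated libraries and no H3K27me3. JRG21, a jasmonate-regulated gene of the turnover list described below, had 244 and 898 counts and a ratio of 3.88 (3.37 to 4.49). H3K27me3 covered the JRG21 gain along its full 3600 bp.

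AT3G22275, annotated as a jasmonate ZIM-domain (JAZ) protein, had 52 and 211 counts and a ratio of 4.28 (3.15 to 5.91). Next in order came a pair of gains beside each other on chromosome 2. The first, at AT2G34810 of the berberine-bridge family of oxidases, had 252 and 764 counts and a ratio of 3.20 (2.77 to 3.70). The other was a 400 bp stretch without an annotated gene, 824 bp from AT2G34820, with 16 and 80 counts and a ratio of 5.27 (3.06 to 9.67). Both touched the same time course gain, in an experiment described further on, and the wide interval of the latter reflects its few reads.

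Among the other gains of the 15, VSP2, the vegetative storage protein gene long used as a jasmonate marker, had 180 and 553 counts and a ratio of 3.24 (2.73 to 3.86). FKF1, a blue-light receptor of the photoperiod pathway, had 54 and 187 counts and a ratio of 3.65 (2.69 to 5.04) over 800 bp that carried H3K9ac before treatment. AT1G54020, a GDSL-type lipase gene, had 86 and 283 counts and a ratio of 3.47 (2.72 to 4.47), and the summit inside it was enriched 7.60-fold for MYC2. AT1G01660, of the RING/U-box family, was touched within its body and not at its 5′ end, with 33 and 134 counts. AT3G60760, a gene without a described function, had 38 and 141 counts. The gain at AT1G53885 had 163 and 474 counts, but its full length matches a second nuclear site, so its reads cannot be placed with certainty.

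The last of the 15 was also the widest gain of all. It ran over 14000 bp (chr1:19508601-19522600) across BGLU18, a beta-glucosidase of ER bodies, and TSA1, a structural protein of these bodies, with 1140 counts in ctrl and 2994 in 2hJA and a ratio of 2.77 (2.59 to 2.97). H3K27me3 touched 7600 bp of it and H3K9ac was present in part of it in all 3 untreated libraries. ER bodies are compartments of the endoplasmic reticulum that store beta-glucosidases against herbivores.

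Ranking by reads and not by ratio gave a different order, in which wide domains came first. The 10 gains with the largest increase made up 4.90% of the increase over all gains, the 100 largest 23.8%, and the 83 gains of 2-fold or more 8.15%. MYC2 came first, with a domain of 13800 bp (chr1:11796001-11809800) that held 3307 counts in ctrl and 5134 in 2hJA, a ratio of 1.64 (1.57 to 1.71). BGLU18 and TSA1 followed, then JAZ9 (annotated as TIFY7), with 924 and 2090 counts and a ratio of 2.39 (2.21 to 2.58). CLH1, a chlorophyllase gene that responds to jasmonate, shared 2213 and 3225 counts with 4 neighbouring genes. MYB95 and FUT3 shared 1399 and 2324 counts, and JAZ5, with its neighbour UBP1B, had 1800 and 2680. The last 4 of the 10 were the AOC1, AOC2 and AOC3 cluster, JAZ1, IAR3 and the domain at CYP79B2 and APK2, whose counts stand with their pathways below. Of these 10 domains 8 held a gene of the jasmonate or glucosinolate lists, and the 2 others one of the ER body or MYB lists. Wide domains can touch several genes, and the share of all gains that held a listed gene was not counted. The lists were chosen with earlier results of these data known, so no conclusion is drawn from this count.

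Jasmonate synthesis starts with the release of linolenic acid in the chloroplast and ends in the peroxisome. Of 20 genes of this pathway 13 had a gain (65.0%, Wilson interval 43.3 to 81.9), with a median log2 ratio of 0.48 and none at 2-fold. LOX2, the 13-lipoxygenase of wounded leaves, had 541 counts in ctrl and 945 in 2hJA, a ratio of 1.84 (1.66 to 2.05). AOS, allene oxide synthase, had 1854 and 2550 counts and a ratio of 1.45 (1.37 to 1.54). The allene oxide cyclases AOC1, AOC2 and AOC3 lay under 1 gain of 7800 bp with 1469 and 2366 counts and a ratio of 1.70 (1.59 to 1.81). OPR3, the peroxisomal reductase, had 781 and 1199 counts and a ratio of 1.62 (1.48 to 1.77). These 4 gains had the highest ratios of the pathway. The lipoxygenases LOX3 (1.39), LOX4 (1.26) and LOX6 (1.19) had lower ratios, as did the CoA ligase OPCL1 (1.25) and the oxidase ACX1 (1.17). The intervals at the lipase DAD1 (0.965 to 1.60) and at AOC4 (0.994 to 1.21) reached 1. No gain touched the 5′ end of ACX5, AIM1, PED1, PXA1, DGL, the conjugating enzyme JAR1 or the methyltransferase JMT.

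Of 10 genes for enzymes that remove or inactivate the hormone 9 had a gain (90.0%, 59.6 to 98.2), 3 of them at 2-fold, with a median log2 ratio of 0.67. Beside JRG21 this included JAO2 (AT5G05600), a jasmonate oxidase gene, with 591 counts in ctrl and 1243 in 2hJA and a ratio of 2.22 (2.01 to 2.45). IAR3, an amidohydrolase that cleaves jasmonoyl-isoleucine, had 834 and 1640 counts and a ratio of 2.07 (1.91 to 2.26). ILL6, a related amidohydrolase, had 547 and 1012 counts and a ratio of 1.95 (1.76 to 2.17). The cytochromes that oxidise the conjugate were lower in ratio, at 1.53 for CYP94B1, 1.39 for CYP94C1 and 1.23 for CYP94B3. The sulfotransferase ST2A had 108 and 163 counts (1.59, 1.24 to 2.05). AT2G38240, of the oxygenase family, had a ratio of 1.11 (1.02 to 1.2), and its relative AT3G11180 had no gain. The start site itself lay inside the gain in 4 of the 10 genes.

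Of the 13 JAZ repressor genes 11 had a gain (84.6%, 57.8 to 95.7), with a median log2 ratio of 0.65. JAZ8 had 122 counts in ctrl and 340 in 2hJA, a ratio of 2.94 (2.38 to 3.65). The ratios of JAZ7 (1.67, 1.43 to 1.95), JAZ10 (1.59, 1.48 to 1.71) and JAZ5 (1.57, 1.48 to 1.67) followed those of AT3G22275, JAZ8 and JAZ9. Their intervals overlap, and the order of these 3 is open to counting error. JAZ2, JAZ3 and JAZ6 lay between 1.42 and 1.45. JAZ1 had 3131 and 3835 counts and a ratio of 1.29 (1.23 to 1.35), and JAZ12 had 990 and 1112 and the lowest ratio of the family, 1.18 (1.09 to 1.29). The gain at JAZ1 held the most counts of the family in both groups, so a ratio below that of JAZ8 went with a larger increase in reads. That gain was 9400 bp wide and touched the 5′ ends of 4 genes, so its counts are not those of JAZ1 alone. Per kb, the gain at JAZ6 was higher in both groups (353 and 484.5 counts, beside 333 and 408 at JAZ1). JAZ4 and JAZ11 had no gain.

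The shares were lower for the transcription factors and the machinery around them. Among 7 basic helix-loop-helix (bHLH) genes of the MYC and JAM group, MYC2, JAM1 (1.14, 1.09 to 1.19) and JAM2 (1.21, 1.1 to 1.32) had a gain. JAM proteins act against MYC2 at shared targets. MYC3, MYC4, JAM3 and NIG1 had none, although H3K9ac was present at all 7 genes before treatment. Of 10 genes for the receptor COI1, corepressors, histone deacetylases, HAC1, LUH and MED25, NINJA, the adaptor between JAZ proteins and TOPLESS, was the one with a gain, with 394 and 481 counts (1.29, 1.12 to 1.47). That count of 1 in 10 is close to the 9.37% of all genes.

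Among 14 wound and defence markers 11 had a gain (78.6%, 52.4 to 92.4), and 6 of them were 2-fold or more, and the median log2 ratio of 1.04 was the highest of the lists with more than 1 gain. VSP1 had 151 counts in ctrl and 430 in 2hJA, a ratio of 3.00 (2.49 to 3.64). NATA1, an ornithine acetyltransferase that makes a defence compound, had 61 and 158 counts and a ratio of 2.73 (2.02 to 3.73). HPL1, the hydroperoxide lyase that competes with AOS for lipid hydroperoxides, had 196 and 382 counts and a ratio of 2.06 (1.73 to 2.45). FAMT, a carboxyl methyltransferase, had 651 and 1223 counts (1.98, 1.80 to 2.18). CORI3 (1.49) and TAT3 (1.38), both aminotransferase-type genes, were lower. ARGAH2, THI2.1 and JAL30 had no gain. Of the 14 genes 11 had H3K27me3 in untreated seedlings and 3 had H3K9ac in all 3 untreated libraries.

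**Figure D2:**
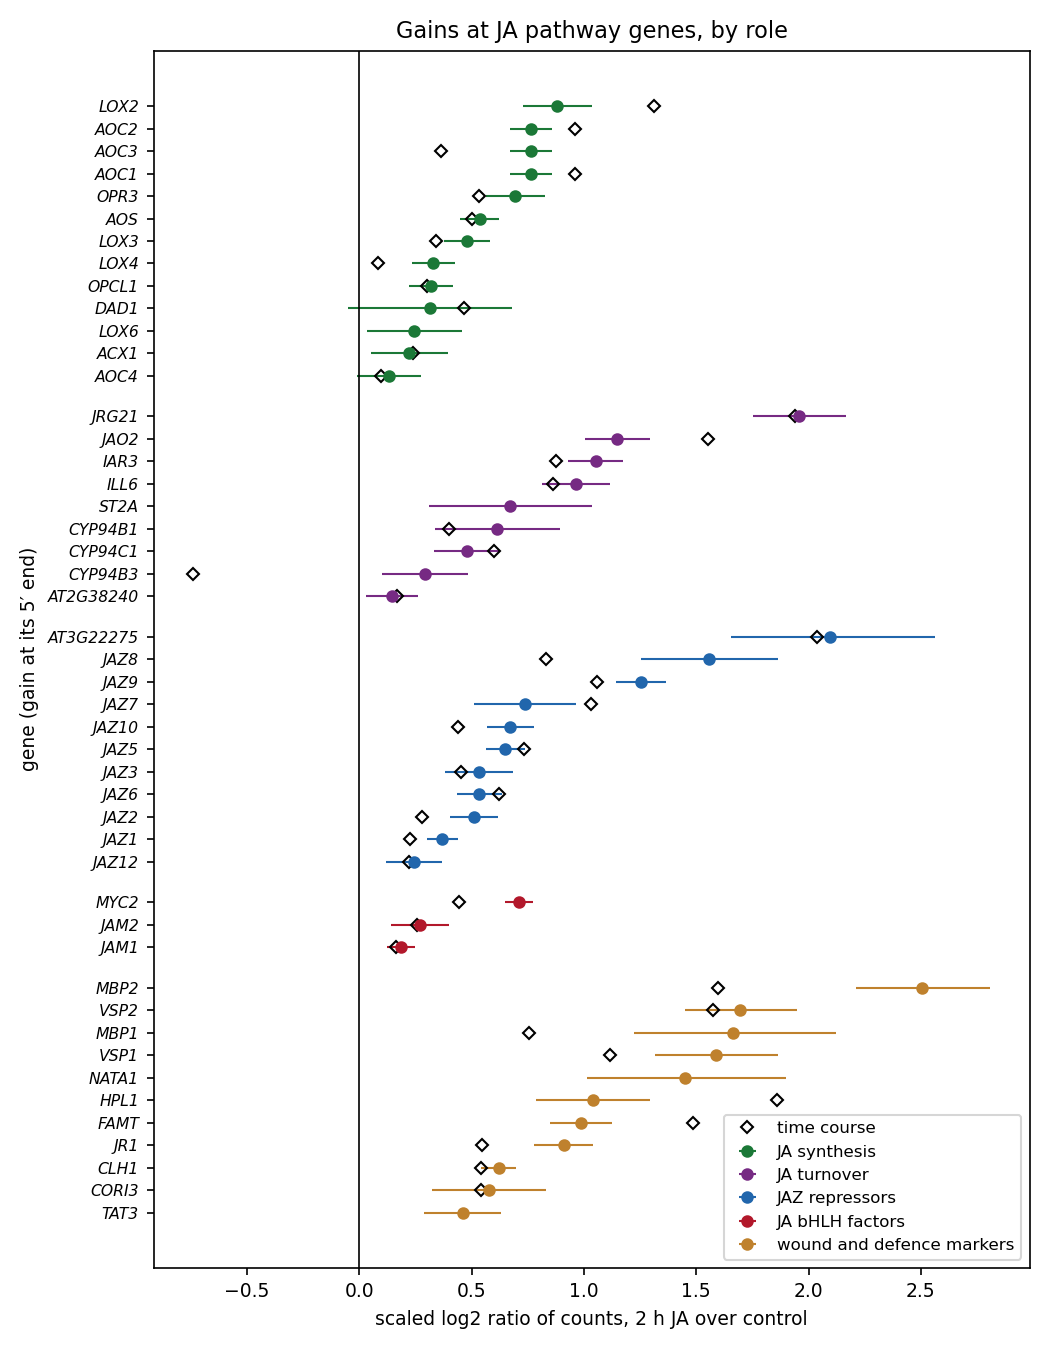
Scaled log2 ratio (2hJA over ctrl, x axis) of each gene of the jasmonate synthesis, turnover, JAZ, bHLH and wound marker lists that had a gain, with bars for the 95% counting interval and open diamonds for the log2 ratio of a time course gain or loss at the same gene. Genes are grouped by list, filled points run from 0.13 at AOC4 to 2.50 at MBP2, and the single diamond below 0 is that of CYP94B3.

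These 5 jasmonate lists together hold 64 genes, of which 47 had a gain (73.4%, 61.5 to 82.7, beside 9.37% of all genes). For 36 of the 47 the transcription start itself lay inside the gain. Upstream of these 36 starts the gain reached a median of 1496 bp, beside 882 bp over the 1610 genes with the start inside a gain. At MYC2 it reached 8393 bp. In 21 of the 36 genes (58.3%) the gain reached 1 kb or more, beside 44.7% of the 1610. Genes under 1 gain were counted separately, so a reach can run over neighbouring genes. AOC1, AOC2 and AOC3 thus gave 978, 3868 and 6359 bp from the same gain. Of the 47 genes 28 had H3K27me3 at the 5′ end before treatment, beside 316 of all 2572 genes with a gain. A MYC2 summit lay inside the gain for 36 of the 47, beside 681 of the 2572.

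Glucosinolate genes were described by branch, and the branches were not tested against each other. Of 16 genes for the indole branch 8 had a gain (50%, 28.0 to 72.0, median log2 ratio 0.57). Besides IGMT5 these were the regulator MYB34, with 1199 counts in ctrl and 1971 in 2hJA (1.73, 1.61 to 1.86), and the first enzymes CYP79B3, with 453 and 725 (1.69, 1.50 to 1.90), and CYP79B2. The 10600 bp gain at CYP79B2 had 1455 and 2218 counts (1.61, 1.50 to 1.72) and held 8 MYC2 summits. The other regulators, MYB51 and MYB122, had no gain. Of 11 genes for the aliphatic branch 4 had a gain (36.4%, 15.2 to 64.6), MAM1 (1.40), CYP83A1 (1.37), SOT17 (1.21) and SOT18 (1.09). None of the 4 reached a log2 ratio of 0.5, and the regulators MYB28, MYB29 and MYB76 had no gain. SOT18 shares its gain with SOT16 of the indole branch.

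Precursors of these compounds come from tryptophan and from sulfate. Of 9 genes for tryptophan synthesis 8 had a gain (88.9%, 56.5 to 98.0, median log2 ratio 0.43). ASA1, the feedback-controlled entry enzyme, had 308 counts in ctrl and 474 in 2hJA (1.62, 1.40 to 1.88), and ASB1 had 405 and 584 (1.52, 1.34 to 1.73). PAI2 had 571 and 1218 counts (2.25, 2.04 to 2.49), and its gain reached towards JAO2, but 46.2% of its length matches a second nuclear site, as does 71.5% of the gain at PAI1. For both the assignment of reads between copies is uncertain. The start site lay inside the gain in 4 of the 9 genes. All 9 genes carried H3K9ac in all 3 untreated libraries and none H3K27me3, in contrast to the wound markers.

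Of 10 genes for sulfate assimilation and glutathione 7 had a gain (70.0%, 39.7 to 89.2, median log2 ratio 0.55). APK1, which makes the activated sulfate that sulfotransferases use, had 579 counts in ctrl and 982 in 2hJA (1.79, 1.61 to 1.99). GSH2, glutathione synthetase, had 768 and 1164 (1.60, 1.46 to 1.75) and SIR, sulfite reductase, 865 and 1202 (1.47, 1.34 to 1.60). The ratios of GSH1, APS3 and APS1 were 1.3, 1.26 and 1.16. The reductases APR1, APR2 and APR3 had no gain.

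Of 7 ER body genes 6 had a gain (85.7%, 48.7 to 97.4). NAI1, the bHLH factor that controls ER bodies, had 441 counts in ctrl and 768 in 2hJA (1.84, 1.63 to 2.07). The membrane proteins MEB2 (1.68, 1.43 to 1.99) and MEB1 (1.35, 1.2 to 1.52) had gains as well, and PYK10, the main beta-glucosidase of root ER bodies, had a ratio of 1.24 (1.03 to 1.49). NAI2 had none. TPS03 was the single gene of 6 terpene synthases with a gain at its 5′ end, with 57 and 163 counts (3.02, 2.22 to 4.15). Its neighbour TPS02 had a gain within its body, with 52 counts in ctrl and 118 in 2hJA (2.39, 1.71 to 3.38). No start site of the 6 lay inside a gain.

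Other transcription factor groups were touched in part. MYB47 had 432 counts in ctrl and 954 in 2hJA (2.33, 2.08 to 2.62). It was, with MYB95, 1 of 2 among 6 MYB genes linked to jasmonate (33.3%, 9.68 to 70.0). Of 7 stress NAC genes 3 had a gain, with ANAC019 (annotated as NAC019) at 151 and 340 counts (2.37, 1.95 to 2.90). Of 14 genes of the ethylene and ERF branch 6 had a gain (42.9%, 21.4 to 67.4). RAP2.6 had 37 and 122 counts (3.48, 2.39 to 5.17), ORA59, which joins ethylene and jasmonate in defence against fungi, 240 and 373 (1.64, 1.39 to 1.94), and ERF1 269 and 386 (1.51, 1.29 to 1.78). ORA47 (1.17), ERF109 (1.18) and ERF13 (1.53) were the others. In the anthocyanin list 3 of 13 genes had a gain, the regulators GL3 (1.57) and PAP1 (1.49) and the synthase CHS (1.24).

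Lists of other hormones and functions had at most 3 genes with a gain each. No gain was found for 11 salicylic acid, 9 auxin and 7 phenylpropanoid genes. The Wilson intervals reach 25.9, 29.9 and 35.4%, so these lists cannot be set below the 9.37% of all genes. Of 11 abscisic acid genes 3 had a gain (27.3%, 9.75 to 56.6), RD29A (1.56), ABI5 (1.48) and the receptor PYL6 (1.16). Of 10 clock genes PRR5 and TOC1 had a gain, with ratios of 1.34 (1.23 to 1.46) and 1.35 (1.21 to 1.50). Of 7 early stress factors 2 had a gain (28.6%, 8.22 to 64.1). The intervals of the clock and early stress lists hold the 9.37% of all genes. WRKY18 had a ratio of 1.56 (1.41 to 1.73), whereas WRKY33 had 1849 and 1861 counts and an interval that reached 1 (0.995 to 1.13). None of 19 nuclear photosynthesis genes had a gain, which allows a share of up to 16.8% by the Wilson interval. None of 10 reference genes had one, which allows up to 27.8%. All 29 were acetylated in all 3 untreated libraries. In the time course described further on, 4 of the 10 reference genes had a gain and none a loss.

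**Figure D3:**
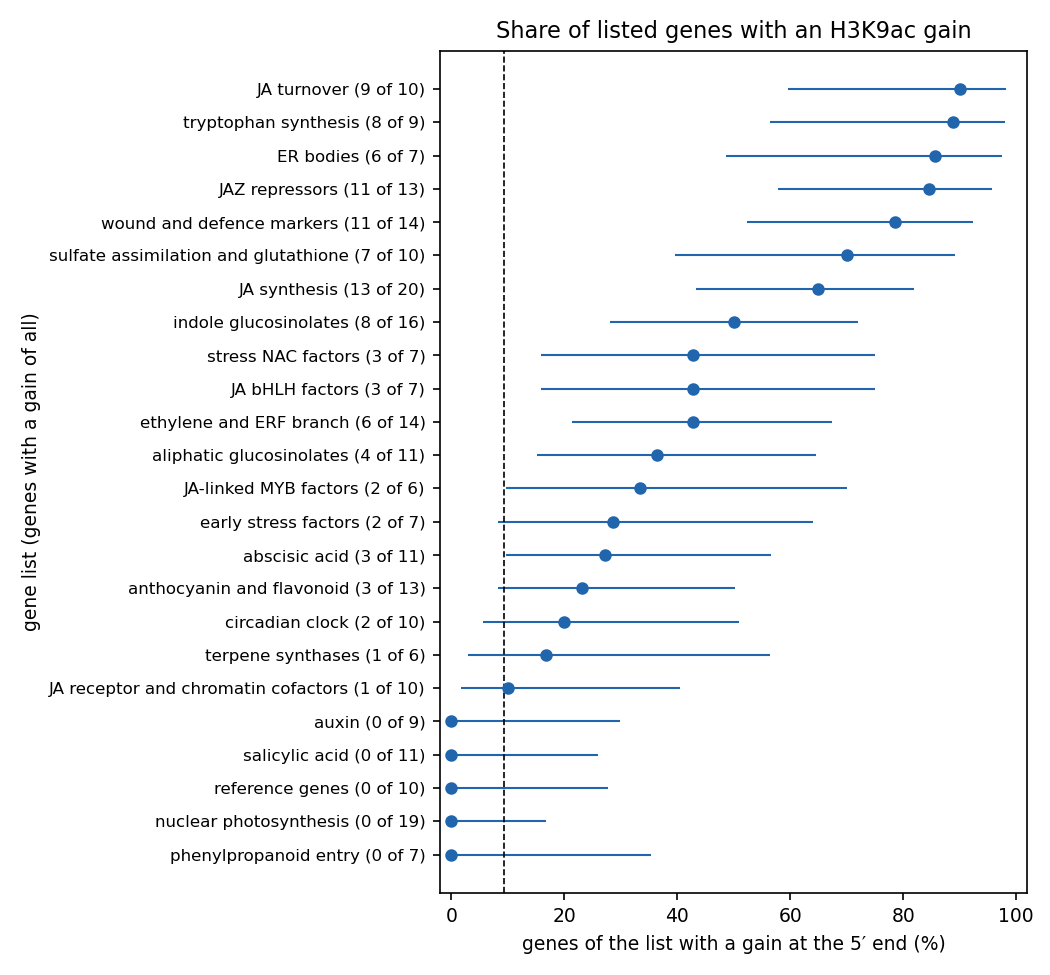
Share of the genes of each list with a gain at the 5′ end (x axis, percent), with Wilson 95% intervals that cover the number of genes only. The dashed line marks the 9.37% of all protein-coding genes, and the turnover list, with 10 genes, lies at 90.0%.

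Gene families defined by their annotated product differed in how many members had a gain and in how steep these were. The family members named here were chosen after their values were seen. Ribosomal protein genes had a gain at 90 of 351 genes (25.6%, 21.4 to 30.5), with a median log2 ratio of 0.21 and none at 2-fold. Multidrug efflux (MATE) transporters had a gain at 12 of 55 (21.8%, 12.9 to 34.4), with a median of 0.42. Among them were AT3G23550, with 60 counts in ctrl and 146 in 2hJA, and AT2G04080, with 338 and 540. UDP-glucosyltransferases had a gain at 22 of 148 (14.9%, 10.0 to 21.5). Glutathione S-transferases had one at 10 of 56 (17.9%, 10.0 to 29.8), under 7 separate gains, and among them GSTU3 had 103 and 215 counts. Jacalin lectins had a gain at 5 of 43 (11.6%, 5.07 to 24.5), an interval that holds the 9.37% of all genes. MBP1 and MBP2 are related to this family, but the search by annotation did not count them among the 43. JAL23 had 62 and 180 counts (log2 ratio 1.61) and JR1, a wound-response gene, 758 and 1350 (0.91). Of 252 cytochrome P450 genes 23 had a gain, which is 9.13% and near the level of all genes. None of 67 peroxidase genes and none of 67 transposable element genes had a gain, and 2 of 70 chlorophyll and photosystem genes did.

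The low end of the list was made of wide, dense domains. The lowest ratio, 1.03 (0.998 to 1.07), was at AT2G07981 and AT2G08986 on chromosome 2, with 6407 counts in ctrl and 6281 in 2hJA, which rises above 1 through the scaling alone. Of its length 49.5% matches a second nuclear site. The next, at AT4G05175, had 2605 and 2597 counts and a second match over 98.6% of its length. The gain at OBP4, RABA1f and RUG3 had 2429 and 2426 counts. These 3 gains were the ones with fewer counts in 2hJA than in ctrl. The gain at SAUR21, with 2218 and 2225, and that at RSW10 and 4 more genes, with 3083 and 3100, came next. The remaining gains of the 5 widest, besides BGLU18, MYC2 and AT2G07981, were those at ZIF1 (3332 and 3587 counts, 1.14) and at JAM1 (4246 and 4578, 1.14).

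A second experiment of the same study allowed the gains to be compared with libraries that were not used to find them. In the time course the same treatment was applied to Col-0 seedlings for 2 h, again with 3 H3K9ac libraries per group merged before calling, and gains as well as losses were listed. Of the 27444 protein-coding genes 15.3% had a time course gain at the 5′ end and 11.6% a time course loss. Of the 2144 gains 1098 (51.2%, 49.1 to 53.3) touched a time course gain and 149 (6.95%, 5.95 to 8.10) touched a loss. Among untreated H3K9ac domains found in all 3 untreated libraries that touched none of the gains, 18.6% touched a time course gain and 18.5% a loss.

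The share with a time course gain was higher at higher ratios. In the tertile of gains with the lowest ratio 41.5% touched a time course gain, in the middle 47.9% and in the highest 64.2%, while the share that touched a loss went from 11.0% over 6.86% to 2.94%. Of the 83 gains of 2-fold or more 62 (74.7%, 64.4 to 82.8) touched a time course gain, 32 of which were 2-fold there as well, and none touched a loss. The 21 others touched neither. Depth moved with this result. Of the 2-fold gains with at least 100 ctrl counts 31 of 34 touched a time course gain, and of those with fewer 31 of 49. The part of depth in the difference was not tested.

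Ratios of the gains called in both experiments can be set side by side, but they do not cover the same stretch. The time course value is that of the domain with the largest overlap with the gain or, for list genes, with the 5′ end. Such a domain can be wider or narrower and can serve several gains. PAI2 and JAO2, for example, share 1 of them (1207 ctrl and 3509 2hJA counts). The part of domain bounds in the differences was not tested. MBP2 had a log2 ratio of 2.50 here and 1.60 in the time course (271 and 812 counts), IGMT5 1.98 and 0.97, and FKF1 1.87 and 0.94. At JRG21 (1.96 and 1.94) and AT3G22275 (2.1 and 2.04) the experiments were close, and at FAMT (0.99 and 1.49) and HPL1 (1.04 and 1.86) the time course was higher. Of the 1098 shared gains 571 had a lower ratio in the time course and 527 a higher one. Of the 42 genes of the 5 jasmonate lists with a gain in both, beside 4.92% of all protein-coding genes, 29 were higher in the large-scale experiment. Of the 15 gains with the highest lower bound all touched a time course gain. RAP2.6 was a 2-fold gain without one, as were NATA1, JAL23 and GSTU3.

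**Figure D4:**
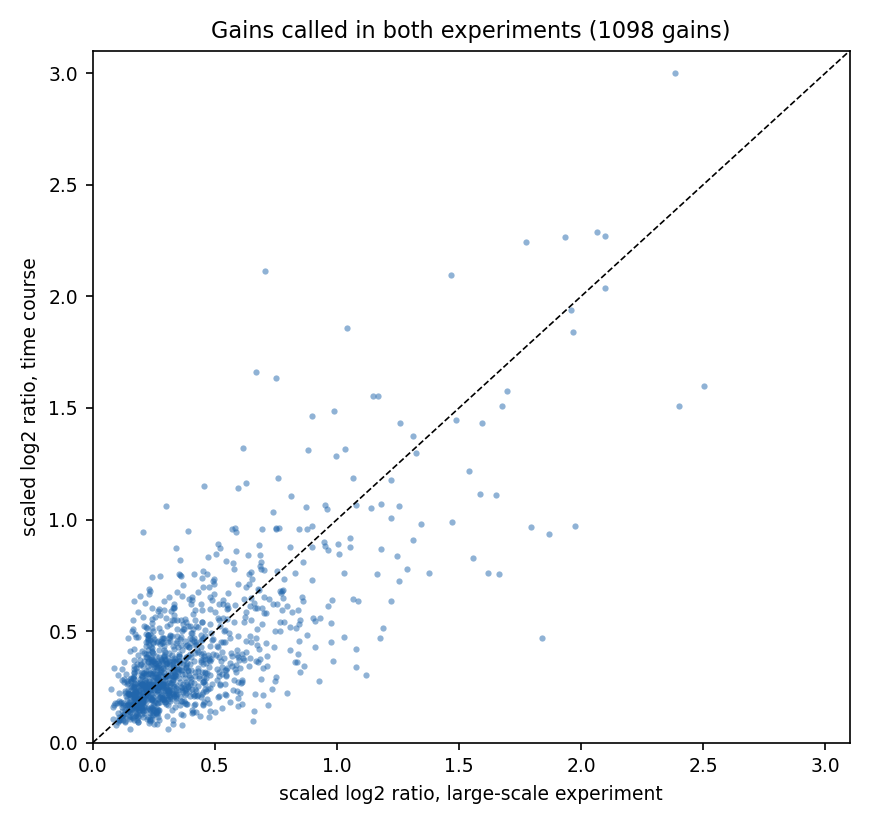
Scaled log2 ratio of each of the 1098 gains called in both experiments, large-scale on the x axis and time course on the y axis, with the line of equality. Points lie on both sides of the line, 571 below and 527 above it. The time course ratio is that of the overlapping time course domain, whose bounds can differ.

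MYC2 binding was measured in other libraries too. A MYC2 summit lay inside 430 gains (20.1%, 18.4 to 21.8), and 37.5% of the gains had one at most 1 kb away. Of untreated H3K9ac domains that touched a gain 17.0% held a summit, beside 4.77% of those that touched none. The share with a summit was 18.6, 14.8 and 26.7% in the tertiles of rising ratio and 38.6% (28.8 to 49.3) in the 2-fold gains, of which 67 of 83 (80.7%) had one at most 1 kb away. The median log2 ratio was 0.33 with a summit and 0.28 without. Width moved with this result, since gains with a summit had a median width of 3200 bp and those without 1200 bp. Over genes, 6.18% of all protein-coding genes had a summit in the 1 kb before the start, beside 9 of the 13 JAZ genes, 7 of the 14 wound markers and 7 of the 16 indole glucosinolate genes. Lists with few or weak gains could have as large a share, with 4 of the 6 terpene synthases and 6 of the 11 aliphatic glucosinolate genes. No gene of the 19 for nuclear photosynthesis had one.

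The G-box was read from sequence. In the window from 250 bp before to 50 bp after the start, CACGTG stood in 13.6% (12.3 to 15.0) of the 2572 genes with a gain, in 7.06% of the genes without and in 7.68% of all promoters of that length. It stood in 14 of the 66 genes with a 2-fold gain (21.2%, 13.1 to 32.5). With CACGTT added, the shares were 24.2% with a gain, 14.9% without and 42.4% at 2-fold. CACGTG reads the same on both strands and CACGTT was searched on both. A promoter with both forms was counted once. Within 50 bp of a summit CACGTG stood at 26.8% of the 600 summits in gains and 27.4% of those elsewhere. With CACGTT added it was 50.8% (46.8 to 54.8) and 43.6% (41.8 to 45.4). Windows 500 bp to the left and right of the summits in gains held CACGTG in 2.00 and 1.67%.

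The chromatin that the gains started from differed along the ratio. In untreated seedlings 88.9% of the gains touched an H3K9ac domain in all 3 libraries, 88.1% H3K4me3 and 75.3% H3K36me3, the marks of transcribed genes, and 17.5% H3K27me3. From the lowest to the highest tertile of ratio, the share with H3K9ac in all 3 untreated libraries was 99.3, 96.2 and 71.2%, that with H3K36me3 91.9, 81.0 and 53.0% and that with H3K27me3 8.11, 12.7 and 31.7%. Among the 2-fold gains 56 of 83 (67.5%) had no untreated H3K9ac domain and 50 (60.2%, 49.5 to 70.1) had H3K27me3. Both held in 38, as at MBP2, JRG21 and VSP2. The untreated lists come from other libraries than the ctrl pool. Ctrl depth moved with the ratio as well, since 2-fold gains had a median of 75 ctrl counts per kb beside 268 over all gains, and its part was not tested.

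**Figure D5:**
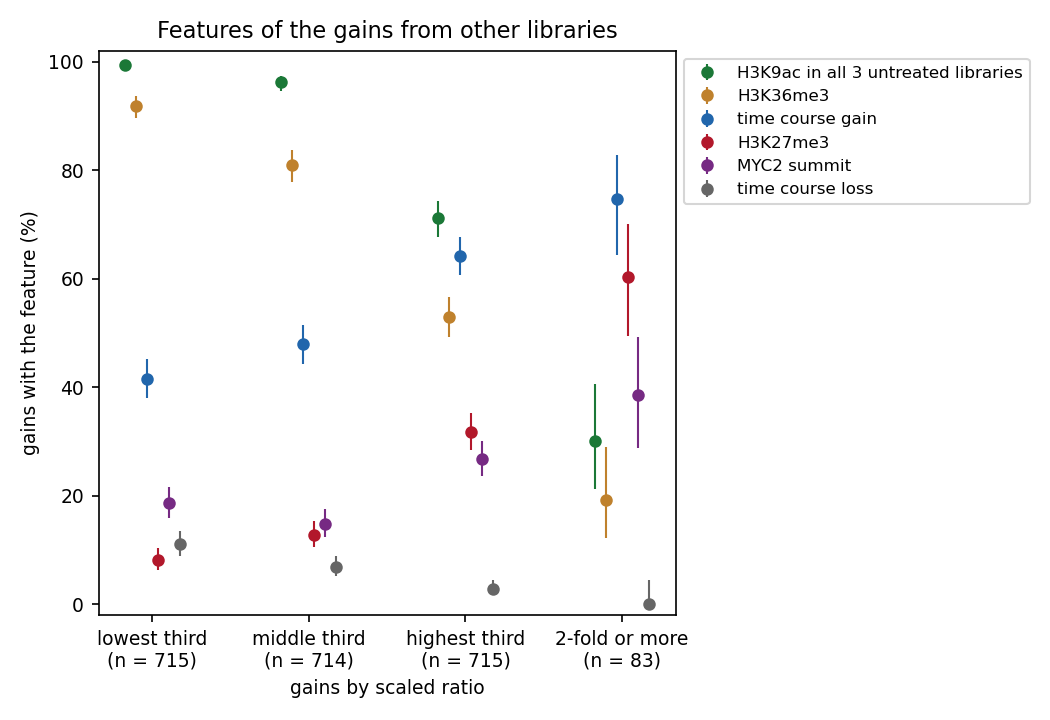
Share of gains (y axis, percent, with Wilson 95% intervals) that touched each feature in other libraries, for the lowest, middle and highest tertile of the scaled ratio and for the 83 gains of 2-fold or more. Untreated H3K9ac and H3K36me3 go down from left to right, and time course gains and H3K27me3 go up.

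Features were combined in the same gains. The 99 gains with H3K27me3, a MYC2 summit and a time course gain had a median log2 ratio of 0.55, and 19 of them were 2-fold or more. The 798 gains with none of the 3 features had a median of 0.25, and 8 were 2-fold. H3K27me3 was at the 5′ end of 26.5% of all protein-coding genes. Of these 7266 genes 4.35% (3.90 to 4.84) had one, with a median log2 ratio of 0.43, beside 11.2% (10.8 to 11.6) and 0.25 for genes without the mark. Likewise 13.8% of the genes acetylated in all 3 untreated libraries (60.8% of all) had a gain, with a median of 0.25, beside 2.45% of the others with a median of 0.51. These others include genes acetylated in 1 or 2 of the libraries. Gains without an untreated H3K9ac domain had a median of 100 ctrl counts per kb, beside 281 where the domain was in all 3 libraries, and the part of this depth was not tested.

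Most gains lay at the start of genes. In 1479 (69.0%) 1 protein-coding 5′ end was touched and in 478 (22.3%) several. A further 99 touched the body of a protein-coding gene, 48 another annotated gene and 40 no annotated gene. The 40 had the highest median log2 ratio of these classes, 0.59, with H3K27me3 at 45.0% and a MYC2 summit in 35.0%. They also had the lowest share with a time course gain, 27.5%, beside 51.2% of all gains. Of the 83 gains of 2-fold or more 26 touched no protein-coding 5′ end, and 8 no gene at all, 4 of which held a MYC2 summit. Some 2-fold gains at clock and chromatin genes fall outside the lists and were chosen after their values were seen. They were PRR3, with 63 counts in ctrl and 136 in 2hJA (2.28, 1.68 to 3.12), and JMJD5, of the jumonji family, with 36 and 76 (2.23, 1.48 to 3.41). The PRR3 gain was 600 bp wide and touched a time course gain with a log2 ratio of 0.51. The JMJD5 gain was 400 bp wide and touched no time course gain.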

How the data were processed

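H3K9ac was measured by PHILO ChIP-seq in 3 ctrl and 3 2hJA libraries. Per the study's methods and the submitters' processing notes, the authors mapped the reads with Bowtie2 2.4.1 (genome TAIR10) and called domains on merged replicates with epic2 (listed as SICER 0.0.52). MYC2 peaks were called with MACS2 2.2.7.1. The deposited domain lists hold read counts of both pools without normalization, and the p-value and FDR given by the authors' caller (all below 0.05). Their deposited log2 fold was used to recover the ratio of library totals, so depth is known through the counts in domains and this ratio. It was also used as a threshold against IgG for untreated domains. Peaks of the deposited MYC2 list have a fold enrichment and a −log10 q-value. Duplicate handling was not given in the sources used here.

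Scaled ratios with exact binomial intervals (95%, counting error only), Wilson intervals of shares, overlaps of at least 1 bp and motif counts were computed in Python 3.11.15 (numpy 2.4.6, pandas 2.3.3, scipy 1.17.1, matplotlib 3.10.9). Genes, names and sequences came from the RefSeq copy of TAIR10, in which 272 of 272 listed entries were matched, and second matches of a gain at 95% identity or more from blastn 2.17.0. The code was tested on simulated data. Named were the 15 gains with the highest lower bound of the ratio, the 10 with the largest increase, the 5 lowest, the 5 widest and list members. The gains, lists and tests were chosen with earlier results of these data known. Merged libraries allowed no test between conditions. Alternatives were other scalings, stricter filters and other overlap rules.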

Additional observations from a re-analysis of the deposited data

Results flagged for a closer look

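Some gains lay where the time course listed a loss, so the direction differed between experiments, and in all 149 gains touched a time course loss. This difference was not tested. Among list members CYP94B3 had 427 counts in ctrl and 496 in 2hJA here (scaled log2 ratio 0.29), and the loss at its 5′ end in the time course had a log2 ratio of −0.738. ANAC055 had 266 and 388 counts here (0.62) and −0.348 in the time course. ERF109 had 1686 and 1886 counts (0.24) and −0.287, and WRKY33 1849 and 1861 (0.09) and −0.217. None of the 83 gains of 2-fold or more and none of the named gains with the highest ratio or increase touched a loss.

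The list also held organelle DNA, which carries no histones. The plastid genome appeared as a single domain with a scaled log2 ratio of 0.471, above which lay 439 of the 2144 nuclear gains (20.5%). The 9 mitochondrial domains had a median log2 ratio of 0.692 (0.52 to 0.94). In the time course 36 mitochondrial domains had a median of 2.08 and the plastid 0.32. The part of such a shift in the nuclear ratios was not tested.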

How the results depend on the processing

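No paired analysis was possible because the 3 libraries of each group were merged into 1 count per side, and for that reason no library could be left out. At a caller FDR of at most 0.001 the list held 1018 gains and 1283 genes, and with at least 100 ctrl counts 34 gains of 2-fold or more. The number of genes was 1610 with the start inside the gain and 387 with a log2 ratio of at least 0.5. Gains that touched time course gains made up 49% where at least 50% of the gain had to be covered and 54.6% at the FDR of 0.001 in both lists, and those that touched losses 5.78 and 3.14%. A MYC2 summit within 1 kb was found for 37.5%. With 50% coverage, H3K4me3, H3K36me3, H3K27me3 and untreated H3K9ac were found at 72.6, 66.1, 12.2 and 80.9%, and where the IgG-relative log2 fold of the untreated domain had to be 1 or more at 86.6, 71.7, 15.6 and 83.8%. With CACGTT added, promoters with the motif made up 24.2% and summits 50.8%, and summits with CACGTG within 25 bp 20.5%. Without scaling by library totals the log2 ratio changed sign at AT2G07981 and AT2G08986 (−0.029), at AT4G05175 (−0.0044) and at OBP4, RABA1f and RUG3 (−0.0018). Of the 113 gains named in the text or the lists, 5 more moved beyond their interval without scaling, and all 113 stayed within it when counts were corrected for read positions already taken, which moved a gain by at most 0.13. Leaving out 8 gains in organelle-like sequence, or 32 with a second nuclear match, was chosen after seeing the data and left 2136 and 2112 gains.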
